A study of Homo sapiens with 28 samples.

Results

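The genes described here make, sense and move cholesterol: 28 of the 60483 genes in a raw count table, taken from a fixed list of names matched to the table's Ensembl identifiers. They are 5 regulators of sterol sensing, 8 enzymes of the mevalonate arm, 12 enzymes of the committed sterol arm and 3 proteins of sterol transport. They were followed in A549 and H1944, both human lung adenocarcinoma lines, that carried the MGT#1-mVenus reporter, a fluorescent construct by which cells were sorted. GSK126, an inhibitor of the histone methyltransferase EZH2, was given at 5 µM, and TGF-β1, a cytokine that drives epithelial-mesenchymal transition, at 5 ng/ml, each for 11 days.

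Each line had 5 groups: GSK126 cells sorted as reporter-high, GSK126 cells sorted as reporter-low, TGF-β1 cells sorted as reporter-high, TGF-β1 cells sorted as reporter-low, and naive cells. Naive cells carried the same reporter, received neither agent and were not sorted, so treatment and sorting cannot be told apart in any comparison with them. H1944 had 3 libraries in each group, 15 in all. A549 had 13 libraries: 2 of GSK126 high, 3 of GSK126 low, 3 of TGF-β1 high, 2 of TGF-β1 low and 3 naive; A549 GSK126 high C and A549 TGF-β1 low B were not analysed here. The labels do not say whether libraries with different letters came from separate cultures, so p-values measure the spread between these libraries, which may be technical.

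Cholesterol is built from acetyl units through mevalonate and farnesyl diphosphate to squalene, lanosterol and then cholesterol. SREBP2, encoded by SREBF2, is the transcription factor that drives most of these genes, and SREBP1, encoded by SREBF1, leans towards fatty acid synthesis. When sterols are scarce, SCAP carries the SREBPs to the Golgi for cleavage, and when sterols are plentiful, INSIG1 and INSIG2 hold SCAP back in the endoplasmic reticulum. INSIG1 is itself an SREBP target, and NF-Y is a factor that binds beside SREBPs at many of these promoters.

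Total counts ran from 1660148 to 13280592 in H1944 libraries (median 2552121) and from 2013449 to 9550143 in A549 libraries (median 4783344). Levels are given as CPM, a gene's count scaled to a common library total. KRT8 stood at 1073 CPM or more in every H1944 library and at 1339 CPM or more in every A549 library, KRT18 at 356 CPM or more in H1944 and 691 CPM or more in A549, and HBB, HBA1 and ALAS2, made by red cell precursors, did not pass 3.89 CPM in any. The other epithelial markers were uneven: KRT19 ran from 0 to 26.6 CPM in H1944 (median 0.495) and from 11.6 to 640 CPM in A549, KRT7 from 42.8 to 172 CPM in H1944 and from 1857 to 4378 CPM in A549, EPCAM from 5.89 to 123 CPM in H1944 and from 3.26 to 15.6 CPM in A549, and CDH1 from 7.08 to 278 CPM in H1944 and from 0.333 to 67.1 CPM in A549. Leukocyte and endothelial markers (PTPRC, CD3E, CD68, CD14, PECAM1, VWF and CDH5) reached at most 17.2 CPM. A set of 374 olfactory receptor genes, which carcinoma lines should not express, summed to 3.62 to 73.2 CPM in H1944 libraries and to 5.99 to 305 CPM in A549 libraries. The highest were A549 TGF-β1 high B at 305 CPM and A549 naive A at 195 CPM, and results resting on A549 were also computed without these 2 libraries.

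The upstream regions of 5 of the genes are printed here because they carry, or lack, the motifs that SREBPs and NF-Y are known to bind, and because these genes moved with treatment. Of the 28 genes, 25 matched RefSeq's table of start-site regions (GRCh38.p14, from 250 bases before to 50 bases after the start), and ACAT2, FDFT1 and SQLE were named only. Both strands were searched for the sterol regulatory element core TCACNCCAC and for the NF-Y box CCAAT, whose reverse complement reads ATTGG, and no match of one overlapped a match of the other. Capitals mark each match, and every sequence runs 5′ to 3′ along its gene's strand.
SREBF2, chr22:41832855-41833154, + strand: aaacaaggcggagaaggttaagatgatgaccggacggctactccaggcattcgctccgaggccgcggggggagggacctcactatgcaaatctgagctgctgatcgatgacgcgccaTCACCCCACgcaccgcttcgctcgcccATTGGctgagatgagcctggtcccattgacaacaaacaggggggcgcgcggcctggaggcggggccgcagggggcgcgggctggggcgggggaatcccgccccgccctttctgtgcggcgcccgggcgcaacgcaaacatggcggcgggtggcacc
FDPS, chr1:155308616-155308915, + strand: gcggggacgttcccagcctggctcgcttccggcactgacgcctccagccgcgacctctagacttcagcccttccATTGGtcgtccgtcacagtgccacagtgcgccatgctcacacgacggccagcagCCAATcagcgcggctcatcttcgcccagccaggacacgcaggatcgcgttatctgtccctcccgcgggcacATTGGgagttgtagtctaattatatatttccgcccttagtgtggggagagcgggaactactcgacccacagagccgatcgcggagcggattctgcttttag
HMGCS1, chr5:43313363-43313662, - strand: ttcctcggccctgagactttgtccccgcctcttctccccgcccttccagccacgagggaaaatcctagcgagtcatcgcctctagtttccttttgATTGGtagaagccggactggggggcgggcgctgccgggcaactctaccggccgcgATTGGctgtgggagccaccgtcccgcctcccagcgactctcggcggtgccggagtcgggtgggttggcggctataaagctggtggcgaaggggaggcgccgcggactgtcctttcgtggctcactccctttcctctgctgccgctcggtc
MVK, chr12:109573544-109573843, + strand: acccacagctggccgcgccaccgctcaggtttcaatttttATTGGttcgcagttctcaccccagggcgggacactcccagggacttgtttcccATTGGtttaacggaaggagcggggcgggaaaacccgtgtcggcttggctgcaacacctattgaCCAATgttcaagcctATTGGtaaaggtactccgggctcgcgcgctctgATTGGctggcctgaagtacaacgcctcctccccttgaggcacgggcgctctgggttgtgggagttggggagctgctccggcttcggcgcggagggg
INSIG2, chr2:118088221-118088520, + strand: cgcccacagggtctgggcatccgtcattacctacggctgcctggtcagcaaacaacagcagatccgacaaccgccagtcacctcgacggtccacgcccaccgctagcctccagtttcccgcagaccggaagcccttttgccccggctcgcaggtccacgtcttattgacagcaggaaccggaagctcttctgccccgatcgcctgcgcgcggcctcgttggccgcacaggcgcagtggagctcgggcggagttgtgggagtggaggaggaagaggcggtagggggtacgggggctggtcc
The sterol regulatory element core lay in 1 of the 25 genes' windows (4%), that of SREBF2, 133 bases before the start, against 1.39% of 27305 genes in the table. The NF-Y box lay in 18 of 25 (72%), against 39.7% of all genes. In the windows printed, FDPS had 3 boxes, HMGCS1 had 2, MVK had 5 and INSIG2 had 0. SREBF1, LBR, SCAP, PMVK, CYP51A1 and NPC1, not printed, also had 0 boxes, and 1 box lay in a window of GGPS1. Whether the boxes go with the direction of change was not tested. Some genes had several windows, and a gene was counted if any of its windows matched. By window, the box lay in 20 of 33 (60.6%), against 34.6% of all windows. A further window of HMGCS1 and a further window of INSIG2, not printed, each had 0 boxes. A match is a run of letters and not a shown binding site, and windows without one say nothing of the factors.

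In naive cells the 28 genes took 0.442% ± 0.015 of all counts in H1944 and 0.141% ± 0.004 in A549 (mean ± SD, n = 3 each). Per kilobase of exon, FDPS (farnesyl diphosphate synthase) stood highest in naive H1944 at 134 ± 9.28 CPM per kb, followed by HMGCS1 (the synthase that makes HMG-CoA) at 120.4 ± 5.14 and SQLE (squalene epoxidase) at 101 ± 1.84. In naive A549 the order opened with LBR (lamin B receptor, which is also a sterol C14 reductase) at 48.3 ± 5.35 CPM per kb, then FDPS at 33.0 ± 4.08 and EBP (a sterol isomerase) at 32.4 ± 3.29, and the last pair differed by less than its spread. NPC1L1, the intestinal sterol importer, was lowest in both lines, at 0.139 ± 0.130 CPM per kb in H1944 and 0.214 ± 0.126 in A549.

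Every naive H1944 library stood above every naive A549 library for 23 of the 28 genes, 4 overlapped and 1 ran the other way. The ratio of mean CPM, H1944 to A549, reached 8.87 for MSMO1 (a sterol C4 methyl oxidase) and 8.66 for HMGCS1. It was 3.98 for SREBF2 and 1.5 for SREBF1. INSIG2 was the gene that ran the other way, at 4.62, 5.82 and 7.15 CPM in H1944 against 15.5, 8.24 and 13 CPM in A549. The lines' naive levels were set side by side without a test. How many of all genes separate between the lines in this way was not counted, so these counts have no baseline.

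**Figure D1:**
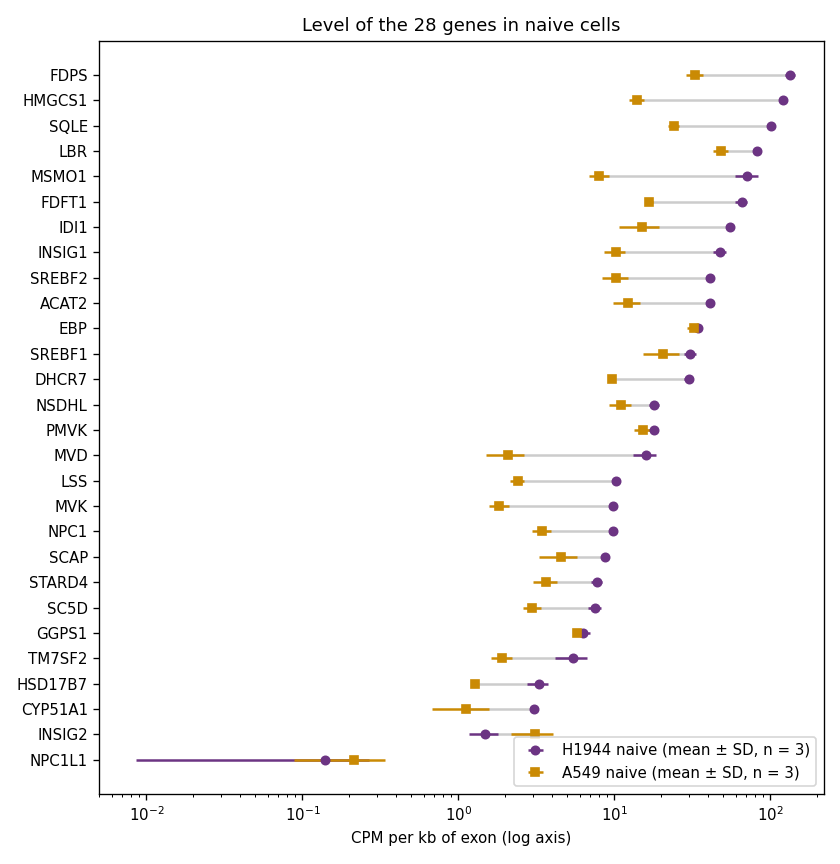
Mean CPM per kilobase of exon (log axis) of each of the 28 genes in naive H1944 cells (circles) and naive A549 cells (squares), with bars of 1 SD over 3 libraries. Circles lie to the right of squares for 26 genes, and INSIG2 and NPC1L1 are the exceptions.

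Summed over the 28 genes, the level in TGF-β1 cells lay far below naive in H1944 and near naive in A549, while GSK126 cells stood above naive in A549. In H1944 the sum was 2025 ± 119 CPM in TGF-β1 high cells and 2022 ± 155 CPM in TGF-β1 low cells, 0.459 and 0.458 of the naive 4415 ± 151 CPM (SD, n = 3 each). GSK126 high cells held 4410 ± 102 CPM and GSK126 low cells 4740 ± 47.8 CPM. In A549 the sum was 1921 ± 142 CPM in GSK126 high cells (n = 2) and 2008 ± 210 CPM in GSK126 low cells (n = 3), against 1405 ± 38.4 CPM in naive cells (n = 3). The A549 TGF-β1 gates, at 1362 ± 248 CPM (high, n = 3) and 1411 ± 126 CPM (low, n = 2), overlapped the naive libraries. Fewer cells making these RNAs and less RNA per cell cannot be told apart in bulk libraries.

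**Figure D2:**
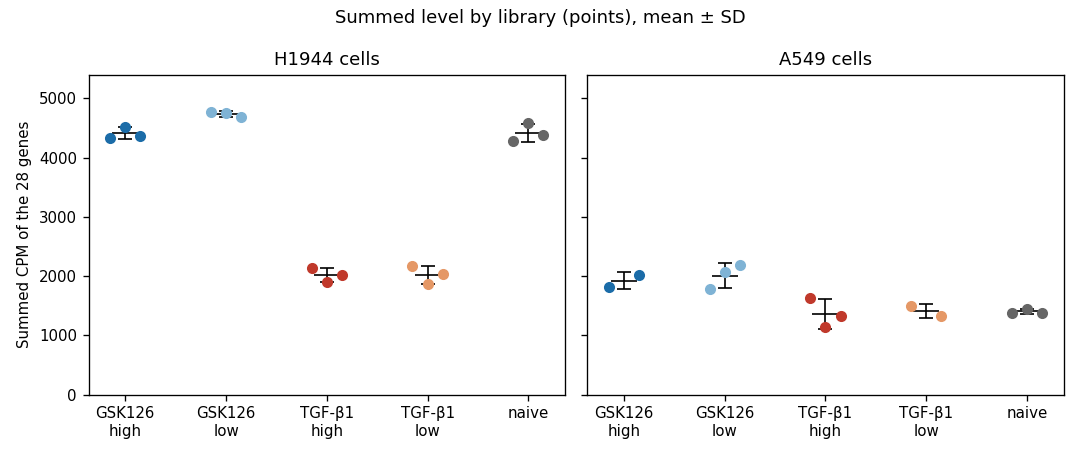
Summed CPM of the 28 genes in each library (points), with the mean and 1 SD per group, for H1944 (left) and A549 (right). All 6 H1944 TGF-β1 libraries sit between 1863 and 2173 CPM, below the 3 naive libraries at 4283 to 4579 CPM.

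Changes were tested in each line with edgeR's quasi-likelihood test over all genes that passed a filter on low counts, with Benjamini-Hochberg adjustment and a threshold of 0.05. Each treated arm is the mean of its high and low gate. The common biological coefficient of variation, edgeR's measure of spread between libraries of a group, was 0.098 in H1944 and 0.358 in A549. The test covered 27 of the 28 genes in both lines, since NPC1L1 did not pass the filter. Both treatments of a line share its naive libraries, so their values are given side by side.

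In H1944, TGF-β1 lowered most of the pathway. Of the 27 genes tested, 22 fell and 2 rose against naive, where 31.6% of all 13621 genes tested fell and 32.1% rose. The median log2 fold change was -0.98 for the 27 genes and -0.01 for all genes. By role, 4 of 5 regulators, 7 of 8 mevalonate enzymes and 11 of 12 sterol enzymes fell, and neither of the 2 transport genes tested passed. Mitochondrially encoded genes took 4.46% to 5.81% of counts in H1944 TGF-β1 libraries and 5.47% to 5.85% in GSK126 libraries, against 6.59% to 7.41% in naive libraries, and the part of that shift in the results of either treatment was not tested.

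SREBF1, encoding SREBP1 (chr17:17810399-17837002, minus strand, GENCODE 29 on GRCh38), fell furthest. It had 65.7, 57.0 and 50.7 CPM in H1944 TGF-β1 high cells and 65.1, 62.6 and 59.2 CPM in TGF-β1 low cells, against 229, 269.9 and 240.4 CPM in naive cells. The groups lay far apart, with a log2 fold change of -1.97 ± 0.09 (SE, edgeR adjusted p = 1.27e-19). SREBF2, encoding SREBP2 (chr22:41833079-41907308, plus strand), had 176, 170.3 and 169 CPM in the high gate and 167, 161 and 173 CPM in the low gate, against 318, 302 and 309 CPM in naive cells. All 6 treated libraries were below all 3 naive ones, and the log2 fold change was -0.80 ± 0.08 (edgeR adjusted p = 4.01e-11).

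The 2 INSIG genes moved in opposite directions in H1944. INSIG1 (chr7:155297776-155310235, plus strand) had 82.9, 61.6 and 68.3 CPM in TGF-β1 high cells and 70.3, 59.6 and 62.3 CPM in TGF-β1 low cells, against 160.2, 193 and 168 CPM in naive cells, with no overlap. Its log2 fold change was -1.29 ± 0.09 (edgeR adjusted p = 4.33e-14). INSIG2 (chr2:118088452-118110997, plus strand), the partner that is not a classical SREBP target, had 19.5, 17.5 and 13.4 CPM in the high gate and 17.7, 13.9 and 13.3 CPM in the low gate, against 4.62, 5.82 and 7.15 CPM in naive cells. It rose by 1.39 ± 0.23 (log2, edgeR adjusted p = 2.29e-06) from a low level, again with no overlap. SCAP, the escort protein, fell by 0.87 (log2).

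Among mevalonate enzymes, FDPS (chr1:155308748-155320666, plus strand) had 130, 127 and 130.4 CPM in TGF-β1 high cells and 154, 112 and 136 CPM in TGF-β1 low cells, against 472, 537 and 484 CPM in naive cells. No treated library passed 154 CPM and no naive one fell under 472 CPM, a log2 fold change of -1.84 ± 0.08 (edgeR adjusted p = 1.68e-19). Antisense genes overlap 18.6% of FDPS, 14.95% of HMGCS1 and 14.8% of IDI1 exon length. Of ACAT2 exon length, SOD2-OT1 overlaps 33.9%, SOD2 26.5% and TCP1 9.23%, all on the opposite strand. No strand setting of the authors' counting is given in the sources used here. MVD (mevalonate diphosphate decarboxylase) fell by 1.65 and MVK (mevalonate kinase) fell by 1.53 (log2). ACAT2, the cytosolic thiolase that opens the arm, fell by 1.24, HMGCS1 by 1.21, PMVK (phosphomevalonate kinase) by 0.99 and IDI1 (isopentenyl diphosphate isomerase) by 0.95. GGPS1, which makes geranylgeranyl diphosphate for protein prenylation and leaves the sterol route, rose by 0.50 ± 0.15 (log2, edgeR adjusted p = 0.00342), and 37.3% of its exon length is shared with TBCE on the same strand.

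Of the sterol enzymes, LBR (chr1:225401502-225428925, minus strand) had 119, 95.4 and 119 CPM in TGF-β1 high cells and 132, 108 and 119.5 CPM in TGF-β1 low cells, against 435, 439.6 and 417 CPM in naive cells. The groups did not overlap, and LBR fell by 1.82 ± 0.09 (log2, edgeR adjusted p = 6.09e-19). FDFT1 (squalene synthase) had 139, 133 and 135 CPM in the high gate and 159, 136 and 157 CPM in the low gate, against 319, 374 and 327 CPM in naive cells. It fell by 1.17 ± 0.08 (log2, edgeR adjusted p = 7.98e-15), and no treated library reached a naive one. TM7SF2, the other sterol C14 reductase, fell by 1.58, DHCR7, which makes cholesterol from its last precursor, by 1.04 and MSMO1 by 1.01. HSD17B7 fell by 0.98, CYP51A1 (lanosterol demethylase) by 0.90, EBP by 0.88 and NSDHL (a sterol dehydrogenase) by 0.74. The smallest falls were those of LSS (lanosterol synthase) at 0.55 and SQLE at 0.32 ± 0.08 (log2, edgeR adjusted p = 0.00156). CYP51A1 stood at 15.9 CPM at most in H1944, and 79.35% of its exon length is shared with another gene model on the same strand.

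SC5D (lathosterol desaturase) at 0.21 ± 0.12, STARD4 (a soluble sterol carrier) at -0.18 ± 0.13 and NPC1 (the lysosomal cholesterol exporter) at -0.20 ± 0.10 did not pass the test under TGF-β1 in H1944 (log2 ± SE). The counts moved little with the processing, from 22 to 25 genes changed over all alternatives.

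**Figure D3:**
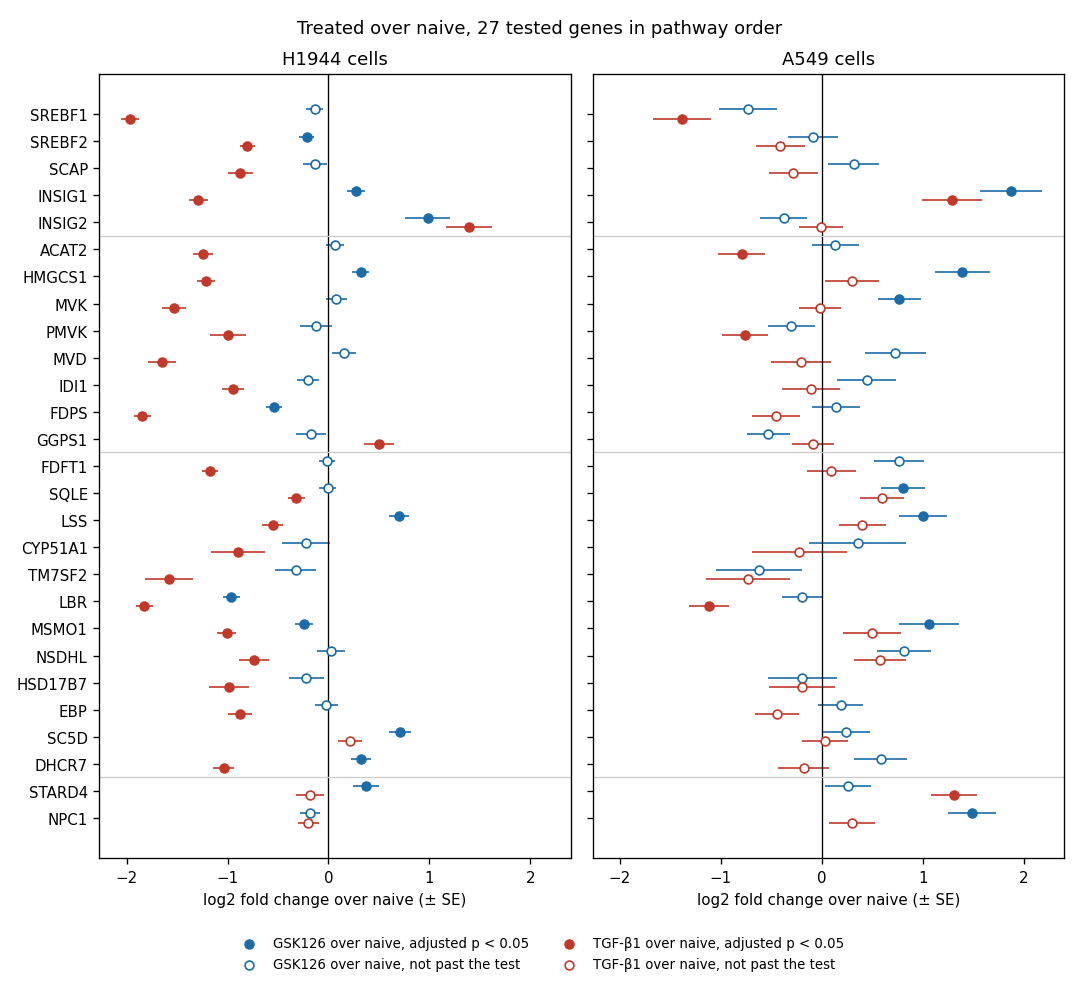
Log2 fold change over naive (± SE) of the 27 genes tested, in pathway order from regulators to transport, in H1944 (left) and A549 (right). Filled points passed an adjusted p of 0.05; in H1944 nearly all TGF-β1 points (red) lie left of 0, and in A549 the GSK126 points (blue) that passed all lie right of 0.

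GSK126 moved fewer of the genes in H1944, and in both directions. It raised 7 of 27 and lowered 4 against naive, where 21.5% of all genes tested rose and 18.7% fell, a share of the 27 close to that of the whole table. The median was -0.02 for the 27 genes and 0.01 for all genes (log2). INSIG2 rose by 0.99 ± 0.22 (log2, edgeR adjusted p = 0.000522), with 10.3, 19.3 and 13 CPM in GSK126 high cells and 11.8, 15.3 and 12.7 CPM in GSK126 low cells, all above the naive libraries.

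Within the sterol arm, LSS and LBR separated under GSK126 in H1944. LSS (chr21:46188141-46228824, minus strand) had 125, 136 and 159 CPM in GSK126 high cells and 125, 125 and 118 CPM in GSK126 low cells, against 71.0, 72.8 and 77.3 CPM in naive cells. It rose by 0.70 ± 0.10 (log2, edgeR adjusted p = 3.58e-07) with no overlap. LBR had 219, 212 and 186 CPM in the high gate and 248, 282 and 299.8 CPM in the low gate, against the naive 417 to 439.6 CPM. All treated libraries lay below all naive ones, and LBR fell by 0.96 ± 0.08 (log2, edgeR adjusted p = 2.34e-11). SC5D had 74.5, 61.8 and 66.9 CPM in the high gate and 78.5, 83.4 and 88.3 CPM in the low gate, against 37.8, 41.6 and 45.7 CPM in naive cells. It rose by 0.71 ± 0.11 (log2, edgeR adjusted p = 2.85e-06), with no overlap.

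FDPS fell by 0.54 ± 0.08 under GSK126 (log2, edgeR adjusted p = 1.94e-06), at 361, 357 and 421 CPM in the high gate and 374, 363 and 354 CPM in the low gate, below every naive library. HMGCS1 and DHCR7 each rose by 0.32 and STARD4 by 0.37, and MSMO1 fell by 0.24 (log2). Treated and naive libraries overlapped for HMGCS1, STARD4 and MSMO1 but not for DHCR7. For HMGCS1 the overlap lay in the high gate, at 540.2 to 785 CPM against 545 to 592 CPM in naive cells. Its low gate stood at 812 to 919 CPM. INSIG1 rose by 0.28 ± 0.09 (log2, edgeR adjusted p = 0.0128), with 220.2, 212 and 218 CPM in the high gate and 236, 244 and 235 CPM in the low gate, all above the naive libraries. SREBF2 fell by 0.22 ± 0.08 (log2, edgeR adjusted p = 0.0211), at 305, 277 and 330.3 CPM in the high gate and 278, 265 and 281 CPM in the low gate, and the high gate overlapped the naive libraries. Scaled by library total alone, its mean was 289 CPM in GSK126 cells and 310 CPM in naive cells, a smaller fall than in the test. SREBF1 did not pass, at 244, 234 and 274 CPM in the high gate and 229, 236 and 239.6 CPM in the low gate (log2 fold change -0.14 ± 0.08, edgeR adjusted p = 0.198).

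The calls of INSIG1 and SREBF2 under GSK126 in H1944 were lost without naive A (edgeR adjusted p = 0.108 and 0.0764) and without naive C (0.0872 and 0.0652). Both were also lost in 1 fit of all 28 libraries (0.509 and 0.299), with no filter on low counts (0.105 and 0.187) and with the high gate alone against naive (0.104 and 0.209), and that of INSIG1 with a filter at 1 CPM (0.123). Without naive C, 6 of the 11 genes were called. Naive C was the deepest H1944 library, with 13280592 counts, against 2378903 in naive A and 2404464 in naive B.

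In A549, GSK126 raised genes of each role and no gene fell past the test. It raised 7 of 27 against naive, where 3.57% of all 19842 genes tested rose and 3.20% fell. Among genes of at least 50 CPM, 6.24% rose and 4.4% fell. The median log2 fold change was 0.32 for the 27 genes and -0.17 for all genes, and 0.04 for the genes of at least 50 CPM. The 7 were 1 regulator, 2 mevalonate enzymes, 3 sterol enzymes and 1 transport gene. Mitochondrially encoded genes took 4.71% to 5.56% of counts in A549 GSK126 libraries and 5.95% to 6.75% in TGF-β1 libraries, against 6.39% to 9.31% in naive libraries, and their part in the results was not tested.

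INSIG1 rose most in A549 under GSK126. It had 139 and 143 CPM in GSK126 high cells and 102, 148 and 192 CPM in GSK126 low cells, against 39.9, 40.9 and 30.6 CPM in naive cells. No treated library came near a naive one, and the log2 fold change was 1.88 ± 0.31 (edgeR adjusted p = 0.000602). NPC1 (chr18:23506184-23586898, minus strand) had 109 and 94.7 CPM in the high gate and 126, 94.4 and 83.8 CPM in the low gate, against 39.0, 29.6 and 36 CPM in naive cells. It rose by 1.49 ± 0.24 (log2, edgeR adjusted p = 0.000481) with no overlap.

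HMGCS1 (chr5:43289395-43313512, minus strand) had 149 and 179 CPM in A549 GSK126 high cells and 122, 239 and 249 CPM in GSK126 low cells, against 64.2, 72.9 and 59.2 CPM in naive cells. It rose by 1.39 ± 0.28 (log2, edgeR adjusted p = 0.00336), with a wide spread among treated libraries and no overlap. LSS had 29 and 37.1 CPM in the high gate and 40.8, 47.7 and 34.5 CPM in the low gate, against 15.5, 17.5 and 19.1 CPM in naive cells. It rose by 1.00 ± 0.24 (log2, edgeR adjusted p = 0.0146). MSMO1 rose by 1.06, SQLE by 0.80 and MVK by 0.77 (log2).

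Neither SREBP gene changed past the test with GSK126 in A549. SREBF2 had 66.4 and 91.2 CPM in the high gate and 70.9, 84.4 and 72.5 CPM in the low gate, against 70.1, 68.4 and 94.7 CPM in naive cells, fully overlapping (log2 fold change -0.09 ± 0.25, edgeR adjusted p = 0.888). SREBF1 had 86.7 and 142 CPM in the high gate and 109, 94.4 and 85.9 CPM in the low gate, against 143, 137 and 214 CPM in naive cells (log2 fold change -0.73 ± 0.28, edgeR adjusted p = 0.167). Without naive A and TGF-β1 high B, the libraries richest in olfactory receptor counts, SREBF1 passed at -0.84 (edgeR adjusted p = 0.0184) and 10 genes were called, the 7 among them. SREBF1 also passed in 1 fit of all 28 libraries (-0.72, edgeR adjusted p = 0.0132) and with the compared groups only (-0.71, edgeR adjusted p = 0.0294). FDFT1 at 0.76 and NSDHL at 0.81 missed the threshold (log2, edgeR adjusted p = 0.0801 and 0.0799).

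The count of 7 rested on few libraries. It was 3 without GSK126 high B and 4 without GSK126 high A, GSK126 low B, GSK126 low C or naive C, and LSS lost its call without GSK126 high B (edgeR adjusted p = 0.187).

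TGF-β1 in A549 raised 2 of the 27 genes and lowered 4, where 7.67% of all genes tested rose and 11.4% fell. Among genes of at least 50 CPM, 11.4% rose and 20.1% fell. With RLE scaling in place of TMM, 4 of the 27 rose and 4 fell. The median log2 fold change was -0.10 for the 27 genes and 0.05 for all genes. STARD4 (chr5:111496033-111512590, minus strand) had 72.9, 46.8 and 67.0 CPM in TGF-β1 high cells and 47.4 and 54.0 CPM in TGF-β1 low cells, against 24.5, 20.2 and 17.2 CPM in naive cells. It rose by 1.31 ± 0.22 (log2, edgeR adjusted p = 0.000273) with no overlap. INSIG1 rose as well, by 1.29 ± 0.30 (log2, edgeR adjusted p = 0.00407), at 155, 69.8 and 97.5 CPM in the high gate and 103 and 85.2 CPM in the low gate, all above the naive libraries.

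LBR and SREBF1 fell with TGF-β1 in A549. LBR had 124, 121 and 138 CPM in the high gate and 117 and 153 CPM in the low gate, against 262, 278 and 223 CPM in naive cells, a log2 fold change of -1.12 ± 0.20 (edgeR adjusted p = 0.000381) with no overlap. SREBF1 had 104, 66.7 and 62.9 CPM in the high gate and 85.7 and 44.3 CPM in the low gate, below all naive libraries, and fell by 1.38 ± 0.28 (log2, edgeR adjusted p = 0.00149). ACAT2 fell by 0.79 and PMVK by 0.76 (log2); 3 genes on the opposite strand overlap ACAT2 exons. SREBF2 did not pass, at 85.2, 63.8 and 53.9 CPM in the high gate and 80.5 and 49.0 CPM in the low gate (log2 fold change -0.41 ± 0.24, edgeR adjusted p = 0.319). HMGCS1 at 0.30 ± 0.26 and FDPS at -0.45 ± 0.24 did not pass either (log2 ± SE).

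**Figure D4:**
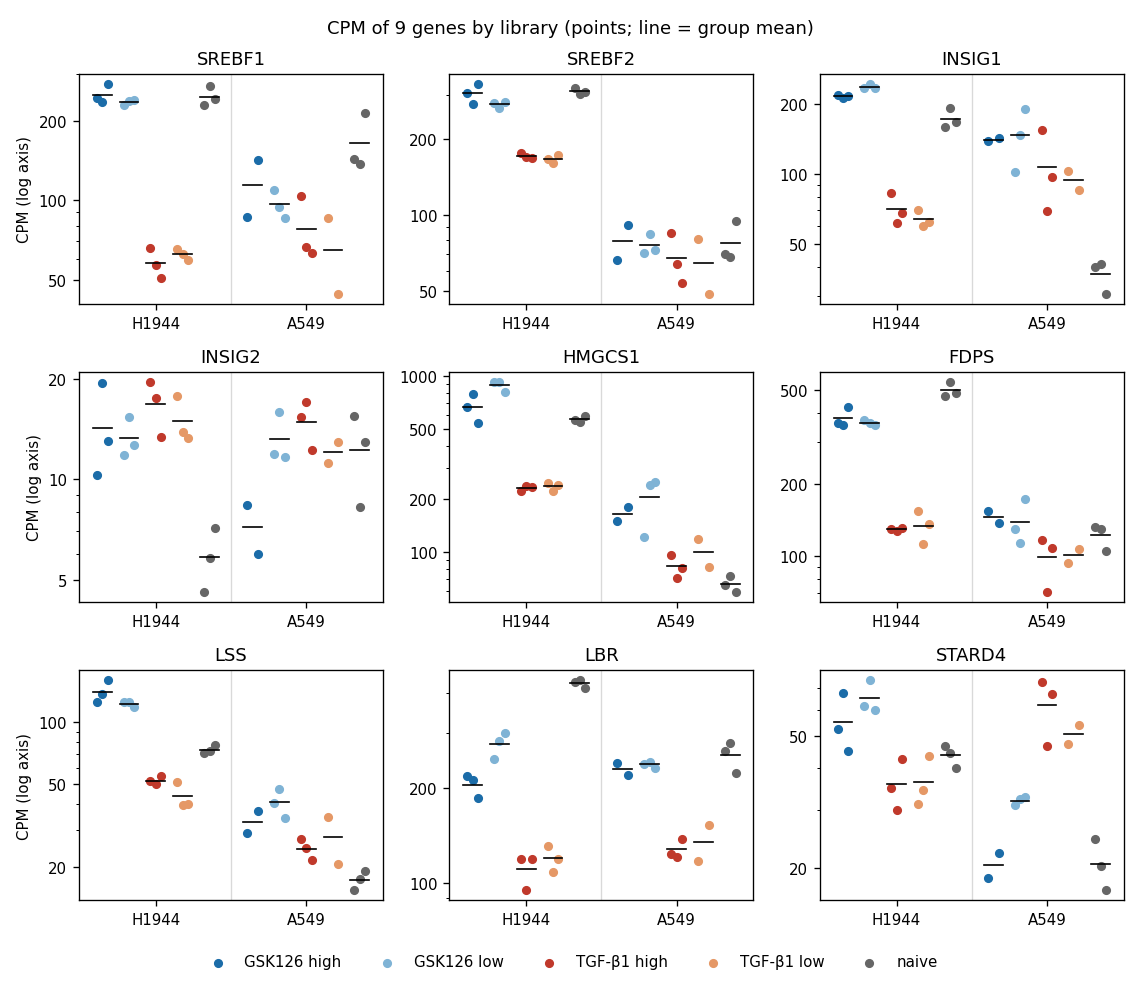
CPM (log axis) of 9 genes in each library, with a line at each group's mean, for H1944 and A549, with each treatment's high and low gates to the left of naive cells. INSIG1 lies below naive in H1944 TGF-β1 cells, at 59.6 to 82.9 CPM, and above naive in A549 TGF-β1 cells, at 69.8 to 155 CPM.

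Set directly against GSK126, most of the 27 genes passed the test as lower in TGF-β1 cells of H1944, and a smaller number passed in A549. In H1944, 24 of 27 genes were lower in TGF-β1 cells and 2 higher, where 32.1% of all genes tested were lower and 31.6% higher. SREBF1 differed most, by -1.83 ± 0.08 (log2, edgeR adjusted p = 3.25e-20). HMGCS1 had 221, 236 and 234 CPM in TGF-β1 high cells and 247, 221 and 239 CPM in TGF-β1 low cells, against 665, 785 and 540.2 CPM in GSK126 high cells and 919, 918 and 812 CPM in GSK126 low cells. The 12 libraries did not overlap, with a log2 difference of -1.53 ± 0.07 (edgeR adjusted p = 1e-18). INSIG1 was lower by 1.56 (edgeR adjusted p = 4.15e-18), FDPS by 1.30 and LSS by 1.25 (log2), and the genes that were higher were GGPS1 and INSIG2. NPC1 did not pass, at -0.02 ± 0.09.

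In A549, 10 of 27 genes were lower in TGF-β1 cells than in GSK126 cells and 1 was higher, where 11.4% of all genes tested were lower and 7.93% higher. Among genes of at least 50 CPM, 21.4% were lower and 9.59% higher. Passing the test aside, the log2 difference was negative for 24 of 27 genes in A549 and for 25 of 27 in H1944. The median was -0.59 in A549, against 0.19 for all genes, and -0.86 in H1944, against -0.01 for all genes. A549 libraries varied more within groups, and the part of that spread in the smaller count was not tested. NPC1 had 57.3, 38.6 and 50.8 CPM in TGF-β1 high cells and 52.2 and 39.5 CPM in TGF-β1 low cells, against 83.8 to 126 CPM in the 5 GSK126 libraries, a log2 difference of -1.19 ± 0.20 (edgeR adjusted p = 0.000251). HMGCS1 followed at -1.09 ± 0.23 (edgeR adjusted p = 0.00217), and LBR differed by -0.92 ± 0.18 (edgeR adjusted p = 0.000999). STARD4 was the gene that was higher, by 1.05 ± 0.20 (log2, edgeR adjusted p = 0.000718). Without A549 GSK126 high B or TGF-β1 low C, 5 of the 11 were called, and without GSK126 low B, 7 were.

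Few of the genes passed the test between reporter gates. In H1944 under GSK126, 2 of 27 genes were lower in high than in low cells and 0 were higher, where 3.31% of all genes tested were lower and 3.62% higher. Among genes of at least 50 CPM, 7.5% were lower and 6.01% higher, so the count lies near that share. HMGCS1 stood at 665, 785 and 540.2 CPM in high cells against 919, 918 and 812 CPM in low cells, a log2 difference of -0.41 ± 0.10 (edgeR adjusted p = 0.0101). LBR stood at 219, 212 and 186 CPM in high cells against 248, 282 and 299.8 CPM in low cells, a log2 difference of -0.42 ± 0.10 (edgeR adjusted p = 0.0101). Both separated without overlap, and the calls were lost without GSK126 low B, that of HMGCS1 without GSK126 high C and that of LBR without GSK126 low C (edgeR adjusted p between 0.0537 and 0.068).

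Under TGF-β1 in H1944, edgeR called 0 of the 27 genes between gates, where 0.0587% of all genes tested were called; 1 of the 27 had an unadjusted p under 0.05, and DESeq2 called 0. In A549, edgeR and DESeq2 called 0 of the 27 genes between gates under either treatment, and edgeR called 0% of all genes tested under GSK126 and 0% under TGF-β1. In each, 1 of the 27 had an unadjusted p under 0.05, as did 986 of all genes under GSK126 and 197 under TGF-β1. The genes with an unadjusted p under 0.05 were chosen after their values were seen: TM7SF2 at -0.88 ± 0.37 in H1944 TGF-β1 cells, INSIG2 at -0.69 ± 0.31 in A549 GSK126 cells and MVK at -0.64 ± 0.26 in A549 TGF-β1 cells (log2, high minus low, ± SE). A549 gates held 2 or 3 libraries each, and the size of difference that could be detected between gates was not tested.

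The treatments' effects differed between the lines for many of the genes, tested as the difference of the log2 fold changes in 1 fit of all 28 libraries. That fit shares its estimate of spread between the lines, with a common coefficient of variation of 0.216. Its SE and adjusted p therefore do not allow for the wider spread of the A549 libraries. For TGF-β1, H1944 lay below A549 for 16 of 27 genes and above for 1, where 9.48% of all 17918 genes tested lay below and 10.5% above. Among genes of at least 50 CPM, 12.3% lay below and 18.4% above. INSIG1 had the widest gap, with a log2 difference of -2.72 ± 0.31 (edgeR adjusted p = 4.97e-08): it fell in H1944 and rose in A549. MVK followed at -1.66 ± 0.21 (edgeR adjusted p = 5.65e-07), with 19, 19.6 and 21.2 CPM in the high gate and 22.9, 23.5 and 20.8 CPM in the low gate of H1944 TGF-β1 cells, against 63.9, 62.8 and 65.1 CPM in naive H1944 cells. In A549, MVK had 9.32, 12.6 and 9.84 CPM in TGF-β1 high cells and 19.1 and 13.3 CPM in TGF-β1 low cells, against 13.2, 9.98 and 12.5 CPM in naive cells, which overlapped.

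STARD4 differed between lines by -1.64 ± 0.26 (edgeR adjusted p = 1.33e-05), having 34.9, 30.0 and 42.8 CPM in H1944 TGF-β1 high cells and 31.2, 34.3 and 43.5 CPM in TGF-β1 low cells, against 46.7, 44.5 and 40.1 CPM in naive cells. FDPS differed by -1.54 ± 0.24 (edgeR adjusted p = 1.5e-05), and INSIG2, the gene above, by 1.30 ± 0.31 (edgeR adjusted p = 0.00256). In A549, INSIG2 had 15.3, 17.1 and 12.3 CPM in TGF-β1 high cells and 11.2 and 12.9 CPM in TGF-β1 low cells, against 15.5, 8.24 and 13 CPM in naive cells, at a level close to that of the treated H1944 cells. For SREBF1 and SREBF2 the difference did not pass (-0.75 ± 0.29 and -0.56 ± 0.24, edgeR adjusted p = 0.0695 and 0.102). ACAT2, LBR, PMVK and SREBF1 fell past the test in both lines, and LBR alone of these 4 also differed between them, by -0.86.

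For GSK126, H1944 lay below A549 for 8 of 27 genes and above for 1, where 3.73% of all genes tested lay below and 6.18% above. Among genes of at least 50 CPM, 8.04% lay below and 6.37% above. NPC1 had a log2 difference of -1.69 ± 0.23 (edgeR adjusted p = 4.27e-06), with 103, 98.1 and 117 CPM in H1944 GSK126 high cells and 87.1, 71.7 and 98.7 CPM in GSK126 low cells, against 101, 98.2 and 98.6 CPM in naive H1944 cells. INSIG1 differed by -1.63 ± 0.30 (edgeR adjusted p = 0.000297), with log2 fold changes of 0.28 in H1944 and 1.88 in A549 in the fits of each line, and the call in H1944 was lost in several of the alternatives given above. MSMO1 differed by -1.33 ± 0.29 (edgeR adjusted p = 0.00208): it had 166 to 204 CPM in H1944 GSK126 cells against 172, 240.0 and 205 CPM in naive cells, and 37.8 to 69.1 CPM in A549 GSK126 cells against 22.5, 26.9 and 20.3 CPM in naive cells. INSIG2 differed by 1.39 ± 0.32 (edgeR adjusted p = 0.00354), with 8.40 and 5.99 CPM in A549 GSK126 high cells and 11.9, 15.9 and 11.7 CPM in GSK126 low cells.

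**Figure D5:**
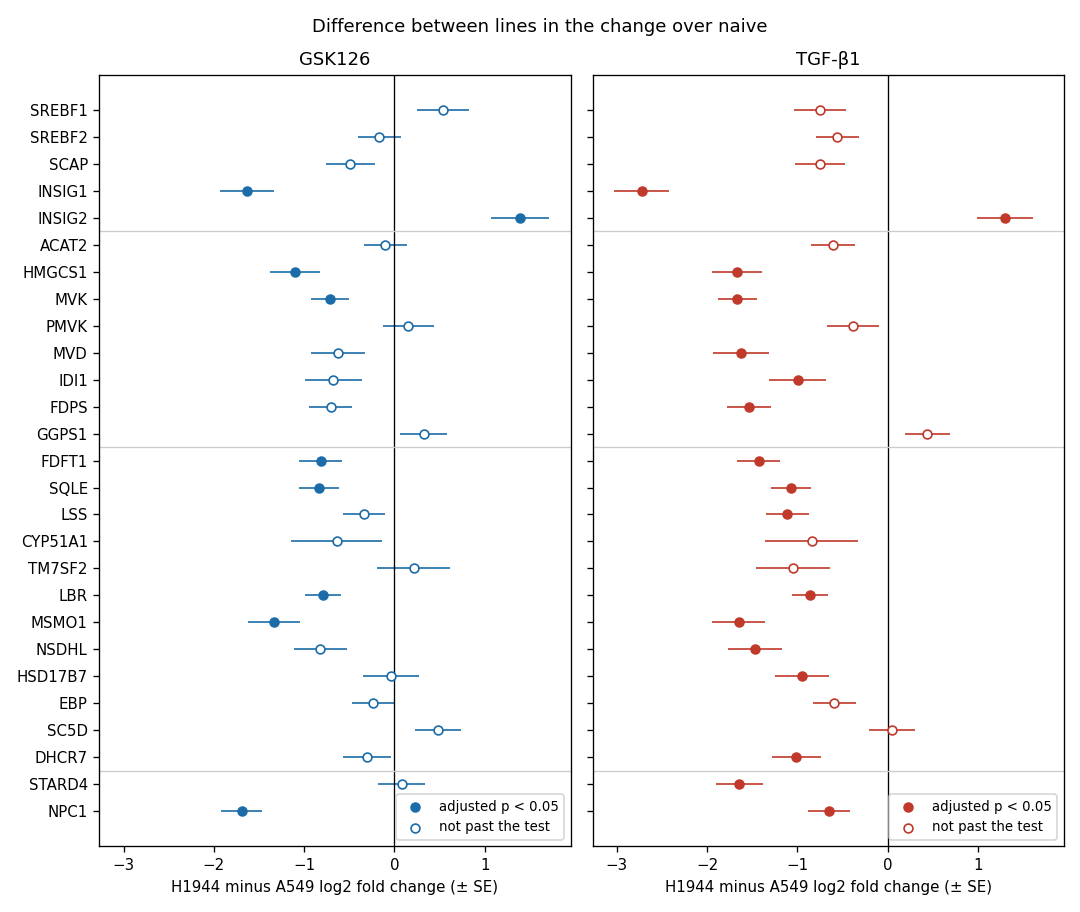
Difference between lines, H1944 minus A549, in the log2 fold change over naive (± SE), for GSK126 (left) and TGF-β1 (right) and the 27 genes tested. Filled points passed an adjusted p of 0.05: 8 lie left of 0 and 1 right for GSK126, and 16 left and 1 right for TGF-β1, INSIG2 being the right-hand one in both.

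NPC1L1 was counted at 18 reads or fewer in every library and did not pass the filter on low counts. In H1944 it had 3.30, 2.76 and 2.89 CPM in GSK126 high cells and 2.23, 2.72 and 2.88 CPM in GSK126 low cells, against 0, 0.832 and 1.35 CPM in naive cells. The GSK126 libraries all lay above the naive ones. In TGF-β1 cells it had 0 to 1.81 CPM. In fits with no filter, chosen for NPC1L1 after seeing the data, GSK126 against naive in H1944 gave a log2 fold change of 1.42 ± 0.64 (edgeR adjusted p = 0.198), TGF-β1 against naive gave -1.38 ± 0.85 (0.349), and TGF-β1 against GSK126 gave -2.81 ± 0.70 (0.00045). With a filter at 1 CPM, the first was 1.41 (edgeR adjusted p = 0.0919) and the last -2.75 (0.000666). In A549 the smallest edgeR adjusted p of NPC1L1 in these fits was 0.406.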

How the data were processed

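RNA was made into libraries from 10 ng of input with a stranded total RNA kit and sequenced, per the labels' protocols. Reads were handled with bcl2fastq 2.20.0, STAR 2.6.0c and HTSeq 0.12.3 on GRCh38, per the submitters' processing notes; annotation release, strand setting and duplicate handling are not given in the sources used here, and any of them can shift genes that overlap others. The deposited values are raw counts per gene. Gene names came from GENCODE 29 and RefSeq tables.

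The members and lists were chosen with earlier results of these data known. CPM values used each library's total and not the TMM scaling of the tests, so a log2 fold change can differ from the ratio of CPM values. Tests used edgeR 4.0.16 in R 4.3.3 (TMM scaling, filterByExpr, quasi-likelihood, group means), with 1 fit for each line's 5 groups and 1 fit of all 28 libraries for differences between lines, adjusted over all genes. The 4 reporter rows were left out of the counts, and only those that passed the filter on low counts were in the fits. SE is the fold change divided by the square root of F. For TGF-β1 against naive in each line, the test was also run on simulated counts with the same spread for every gene. Those runs do not cover the gate tests or the tests between lines, and their outcome is not given here. In full, with each library's value, are the 4 genes of smallest adjusted p per comparison, with INSIG1, SREBF1 and SREBF2; the others are given by value or count.

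Letters A to C number the libraries in each group, and the labels do not say that they mark a shared culture. Deviations of same-letter libraries from their group means were compared between gates over genes of at least 10 CPM. In H1944, r was 0.147, 0.221 and 0.179 under GSK126 and 0.063, 0.143 and -0.027 under TGF-β1. Over all genes past the filter, the H1944 GSK126 values were 0.130, 0.037 and 0.0004. In A549, r was 0.159 and 0.086 under GSK126 and 0.153 and 0.510 under TGF-β1, over genes of at least 10 CPM. The reported tests did not pair libraries in any comparison. The alternatives were RLE scaling, DESeq2 1.42.0, other filters, other sets of libraries and the letter as a block.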

Additional observations from a re-analysis of the deposited data

Results flagged for a closer look

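The treatments' effects on 17 of the 27 genes under TGF-β1 and on 9 under GSK126 differed between the lines in a test of the difference itself (edgeR adjusted p under 0.05), given here as the log2 fold change over naive in H1944 minus that in A549. Under TGF-β1 the difference was -2.72 for INSIG1, the sterol sensor that is itself an SREBP target. Among mevalonate enzymes it was -1.66 for MVK, -1.66 for HMGCS1, -1.62 for MVD, -1.54 for FDPS and -1.0 for IDI1. Among sterol enzymes it was -1.65 for MSMO1, -1.47 for NSDHL, -1.43 for FDFT1, -1.11 for LSS, -1.07 for SQLE, -1.01 for DHCR7, -0.94 for HSD17B7 and -0.86 for LBR. For the transport genes it was -1.64 for STARD4 and -0.65 for NPC1, and for INSIG2 it was 1.30.

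Under GSK126 the difference was -1.69 for NPC1, -1.63 for INSIG1 and 1.39 for INSIG2. Among the enzymes it was -1.33 for MSMO1, -1.10 for HMGCS1, -0.84 for SQLE, -0.82 for FDFT1, -0.79 for LBR and -0.71 for MVK. HSD17B7 stood at 10.8 CPM or less in TGF-β1 cells of either line, and its values are uncertain because 2 pseudogene copies held 321 reads over all libraries, against 1083 for HSD17B7. CYP51A1, with 786 reads and 192 in 3 copies, is uncertain in the same way, while the copies of IDI1 held 100 reads against 15674 and those of FDPS 248 against 25974. Both sets of differences use the same naive libraries of each line, and what sets the lines apart was not tested. Both also come from the fit of all 28 libraries, which shares its estimate of spread although A549 libraries varied more than H1944 ones.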

How the results depend on the processing

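Over 294 alternative counts of genes changed, 263 stayed within 1.5 times the reported count, 31 did not, and 0 calls turned direction. For A549 GSK126 against naive the 7 genes became 13 in 1 fit of all 28 libraries (11 higher, 2 lower), 12 with the compared groups only (11 higher, 1 lower), 4 with a filter at 1 CPM or with no filter, 3 with the high gate alone, 4 with the low gate alone, 4 without GSK126 high B and naive B together (chosen after seeing the data), and 3 to 9 with 1 library left out. For A549 TGF-β1 against GSK126 the 11 became 17 in 1 fit of all libraries, 7 at 1 CPM, 5 with no filter, and 5 to 16 with 1 library left out. For H1944 GSK126 against naive the 11 became 5 in 1 fit, 6 at 1 CPM or with no filter, 7 with the high gate alone, and 6 to 11 with 1 library left out. For the H1944 GSK126 gates the 2 became 0 in 1 fit, 1 with the compared groups only, and 0 to 3 with 1 library left out. The 9 differences between lines under GSK126 became 5 at 1 CPM. The cause of these moves was not tested.

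With 1 library left out, H1944 TGF-β1 against naive gave 24 to 25 genes, H1944 TGF-β1 against GSK126 24 to 26, A549 TGF-β1 against naive 5 to 8, the difference between lines 7 to 12 under GSK126 and 14 to 23 under TGF-β1, and the other gate comparisons 0. Among 42 single-gene values, SREBF2 in A549 GSK126 cells turned sign, to 0.034 with the high gate alone; with 1 library left out it ran from -0.28 to 0.10 (positive without naive C), and none of these passed the test.

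With the letter as a replicate block, the H1944 GSK126 gates gave the same 2 genes. The count was then 4 for A549 GSK126 against naive and 7 for A549 TGF-β1 against GSK126. No other count moved by over 1.5 times. The A549 gates held 2 or 3 libraries each, and CYP51A1, INSIG2 and NPC1L1 had low counts.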

Other observations

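Genes beside the cholesterol route were counted in 5 lists chosen with earlier results of these data known. Of all genes tested against naive, TGF-β1 raised 32.1% and lowered 31.6% in H1944 and raised 7.67% and lowered 11.4% in A549, and GSK126 raised 21.5% and lowered 18.7% in H1944 and raised 3.57% and lowered 3.20% in A549. Many of the counts below lie near these shares, and no list was tested against them. Of 18 genes of fatty acid synthesis and SREBP1 targets, TGF-β1 in H1944 lowered 9 and raised 6, with FADS1, a fatty acid desaturase, at -1.55 ± 0.07 and SCD, the stearoyl-CoA desaturase, at -1.16 ± 0.07 (log2 ± SE; edgeR adjusted p = 6.76e-19 and 1.47e-16). GSK126 in H1944 raised 10 of the 18 and lowered 2, with the elongase ELOVL6 at 2.03 ± 0.23 and the phosphatidate phosphatase LPIN1 at 0.76 ± 0.10 (edgeR adjusted p = 7.19e-09 and 1.51e-07). In A549, GSK126 raised 1 of the 18, LPIN1 at 0.85 ± 0.20 (edgeR adjusted p = 0.0117). TGF-β1 in A549 raised 3 and lowered 2, with GPAM, which starts glycerolipid synthesis, at 4.48 ± 0.27 and TMEM97, a sterol-regulated membrane protein, at -1.37 ± 0.20 (edgeR adjusted p = 1.25e-09 and 5.33e-05).

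Of the LXR targets and genes of sterol efflux and esterification, TGF-β1 lowered 6 of 9 tested in H1944 and raised 3; SOAT1, which esterifies cholesterol, stood at -1.35 ± 0.10 and LPCAT3 at -1.82 ± 0.14. In A549, TGF-β1 lowered 3 of 12 and raised 1, the efflux pump ABCA1 at 1.80 ± 0.38 (edgeR adjusted p = 0.0021), and SOAT1 stood at -0.71 ± 0.18. ABCG1, a further efflux pump, fell with GSK126 by 1.29 ± 0.20 in H1944 and by 2.05 ± 0.56 in A549 (log2; edgeR adjusted p = 3.95e-06 and 0.0337); in H1944 2 of 9 rose and 2 fell, and in A549 1 of 12 fell.

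Of sterol uptake and trafficking genes in H1944, TGF-β1 raised 8 of 14 and lowered 4, and GSK126 raised 5 and lowered 2. CAV1, the caveolar coat protein, rose by 2.85 ± 0.17 with TGF-β1 and by 2.61 ± 0.17 with GSK126 (log2). In A549, TGF-β1 raised 3 of 16 and lowered 3, with NPC2, the lysosomal cholesterol carrier, at 2.72 ± 0.25 and the receptor LRP1 at 3.59 ± 0.36. GSK126 raised 3 and lowered 0 there, NPC2 by 0.90 ± 0.24. Of 18 genes of SREBP processing, TGF-β1 raised 7 and lowered 7 in H1944 and lowered 1 in A549, and GSK126 raised 2 and lowered 3 in H1944. GSK126 in A549 called 0 of those 18 and 0 of 13 in the non-sterol isoprenoid branch by edgeR's adjusted p; 2 of the 18 and 1 of the 13 had an unadjusted p under 0.05. In that branch TGF-β1 raised 2 and lowered 5 in H1944 and lowered 1 in A549, COQ2 of coenzyme Q synthesis at -0.96 ± 0.27, and GSK126 raised 1 and lowered 4 in H1944.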
